A study of Caenorhabditis elegans with 6 samples.

Results

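The nuclear-encoded subunits of the mitochondrial respiratory chain and of ATP synthase were examined as a group of 37 genes, among the 21498 genes that both deposited tables hold. They were taken by name and not by their values, although earlier results of these data were known. The tables list 28 of them under the name used here and the other 9 under an older name or a sequence name, which were matched through the RefSeq and WBcel235 annotations. By complex, 8 genes belong to complex I, 4 to complex II, 7 to complex III and 7 to complex IV, 2 encode cytochrome c, and 9 belong to ATP synthase (complex V). All 37 passed the filter on low values in every comparison, a minimum of 10 normalized reads in 2 or more libraries. Normalized reads are reads divided by a size factor of the library, and a log2 change below is a log2 fold change on the scale of log2(normalized reads + 1).

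RNA was sequenced from whole *Caenorhabditis elegans* worms on adult day 1, with 2 libraries in each of 3 groups. All worms carried the human Aβ transgene of strain GMC101, as their descriptions name it, driven in body wall muscle by the *unc-54* promoter and marked by *mtl-2*p::GFP. They were grown at 20°C and kept at 25°C for 24 h to induce Aβ. The control group carried no change in *hlh-30*, the worm ortholog of TFEB, although its label reads wild type. The labels give only the group, and the genotypes are those of the strain list of the study. The group labelled *hlh-30* overexpression carried in addition an *hlh-30*p::*hlh-30*::GFP transgene, brought in by crossing. The group labelled *hlh-30* knockout carried the allele *hlh-30*(syb6883), in which the first exons of the gene were deleted, and which is 1 engineered line. Nothing in the labels says that the libraries of a group came from separate cultures, so p-values measure the spread between these libraries, which may be technical.

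The electron transport chain passes electrons from NADH (complex I) and succinate (complex II) through ubiquinone, complex III and cytochrome c to oxygen at complex IV, and the proton gradient it builds drives ATP synthase. Most subunits are encoded in the nucleus and imported, and a small set is encoded by mitochondrial DNA. In *C. elegans* the chain is best known from long-lived or oxygen-sensitive mutants such as *isp-1*, *nuo-6*, *gas-1* and *mev-1*, and the muscle, the intestine and the germline are all rich in mitochondria.

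Between 18097925 and 19300834 reads fell on genes in each library, and the 10 highest genes took between 6.40% and 7.01% of them. The targeted gene stood at 6022 and 5693 normalized reads under overexpression versus 3102 and 3315 in the control libraries (log2 change 0.87 ± 0.06 SE, limma adjusted p = 3.97e-06). The call was lost under 5 of the 13 alternatives, with a highest adjusted p of 0.295. These were the fits with no filter, without the mean trend, with all 6 libraries in 1 fit and without either control library. The libraries labelled knockout still had 2104 and 3005 normalized reads of *hlh-30*, against 3049 and 3258 in the control libraries (log2 change -0.33 ± 0.17 SE, adjusted p = 0.511, and 3.38e-13 without knockout library 2). Reads were summed over the whole gene and give no check of the deletion, and the group is called by its label throughout. Both comparisons use the same 2 control libraries.

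Respiratory chain genes were lower in the *hlh-30* overexpression libraries than in the control libraries. Of the 37 members, 22 fell and 0 rose at an adjusted p under 0.05, where 8.06% of all 15918 genes tested fell and 6.71% rose. The changes were small. The log2 fold changes of all 37 members lay below 0, from -0.49 for *ucr-2.3* to -0.02 for *asg-2*, with a median of -0.21 beside a median of -0.002 over all genes tested. None of the 37 changed by 2-fold, as 1.86% of all genes tested did at that adjusted p, and 31 had an unadjusted p under 0.05 (28.9% of all genes). In bulk RNA, fewer cells of a type and less RNA per cell cannot be told apart.

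Most members are abundant, and abundant genes as a whole also lay lower. The members' control means ran from 204 to 38941 normalized reads with a median of 4545, where the median gene tested had 221. Among the 4073 genes whose mean was 1000 normalized reads or more, 23.9% fell and the median log2 fold change was -0.09. Of the 34 members in that range, 22 fell, with a median of -0.21. Both overexpression libraries lay below both control libraries in 34 of the 37 members, compared with 29.4% of all genes tested and 55% of the genes with a mean of at least 1000. The 3 members whose groups overlapped were *ucr-2.2*, *cyc-2.2* and *asg-2*.

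The calls depended on both control libraries and on how the spread was estimated. Leaving out control library 1 or control library 2 left 0 of the 37 members past the threshold (and 0 of all genes tested), whereas 23 members passed without overexpression library 1 and 18 without overexpression library 2, all of them lower. Of all genes tested, 10.7% fell in the first of these fits (1660 genes, while 1238 rose) and 6.99% in the second (1087, while 805 rose). A fit with 1 library in a group takes its spread from the other pair. The count was also 0 with all 6 libraries in 1 limma fit, with low genes kept in the table, without the trend of the spread with the mean, or with a 2-fold minimum, whereas the median log2 fold change stayed between -0.25 and -0.19 in every alternative tried.

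**Figure D1:**
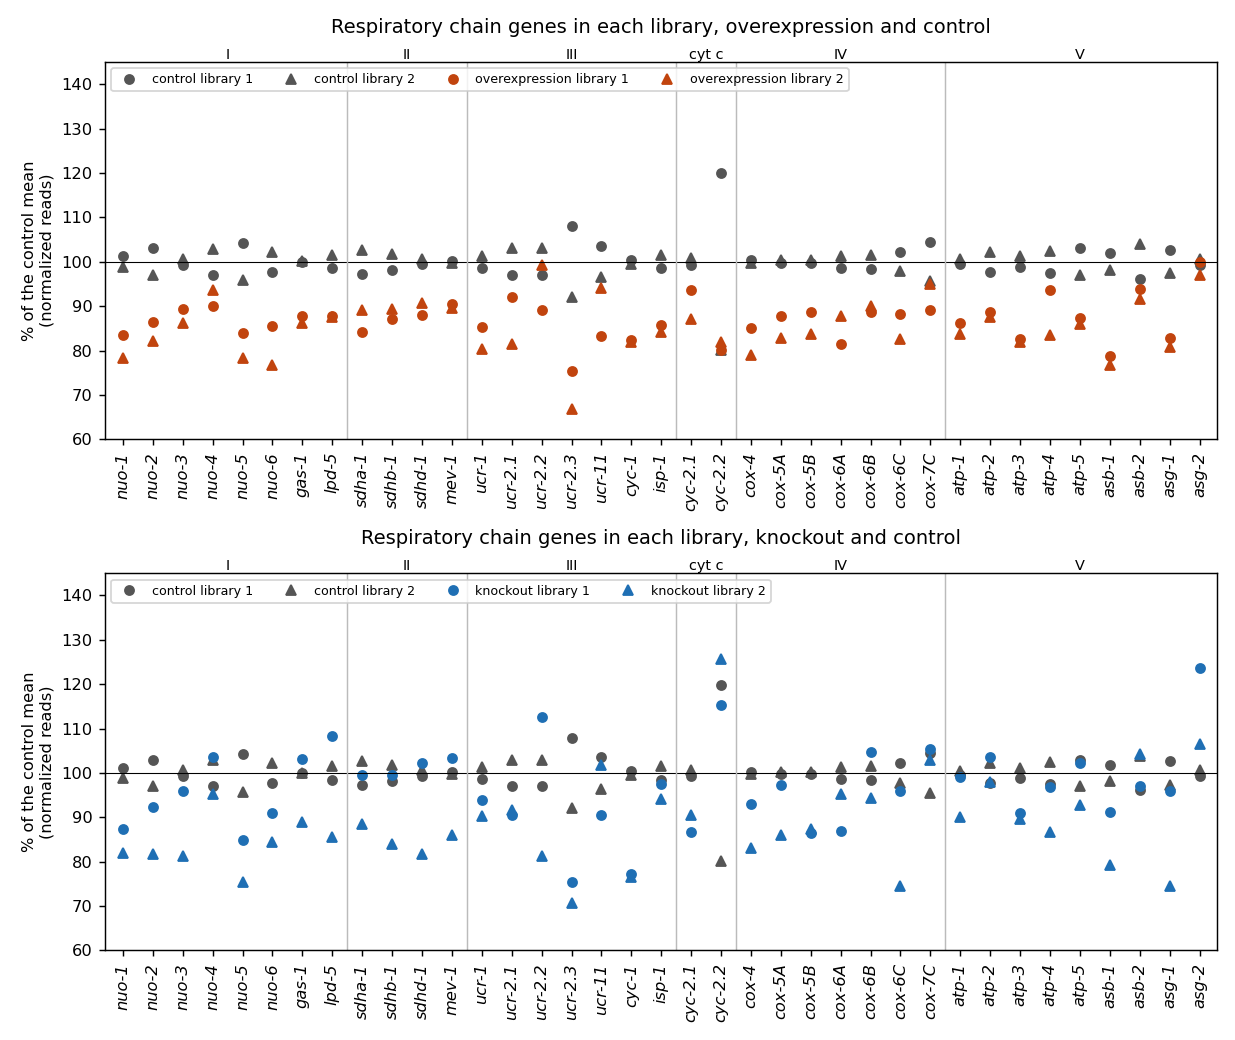
Normalized reads of each of the 37 members in each library, as a percentage of the control mean of the same table (y axis), ordered along the x axis by complex, with overexpression in the upper panel and knockout in the lower. Both overexpression libraries lie below both control libraries for 34 members, whereas the libraries labelled knockout do so for 21.

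NADH dehydrogenase (complex I) accepts electrons from NADH. Of its 8 members, 5 fell with overexpression (*nuo-1*, *nuo-2*, *nuo-3*, *nuo-5* and *nuo-6*), and the median log2 fold change was -0.22. *nuo-1*, which encodes the flavin-binding subunit of the matrix arm, stood at 5727 and 5375 normalized reads under overexpression versus 6950.2 and 6785 in the control libraries. It fell by 19.2% (log2 change -0.31 ± 0.05 SE, adjusted p = 0.00263), the lowest log2 fold change in the complex. *nuo-5*, a core subunit of the matrix arm that binds iron-sulfur clusters, had 5198 and 4848 versus 6447 and 5929 normalized reads and a log2 fold change of -0.30 ± 0.06 SE (adjusted p = 0.00536). In both genes the overexpression libraries lay apart from the control libraries by more than either pair differed within itself.

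A missense mutation in the accessory subunit *nuo-6* slows respiration and lengthens life. Its transcript had 1643 and 1476 normalized reads under overexpression versus 1878 and 1963 in the controls, and fell by 18.9% (adjusted p = 0.0151). *nuo-2*, a core subunit of the matrix arm, gave 1921 and 1826 versus 2289 and 2155 (log2 change -0.25, adjusted p = 0.0255). For the accessory subunit *nuo-3* the values were 3359 and 3246 versus 3737 and 3790.5 (log2 change -0.19, adjusted p = 0.0395). The overexpression values of these genes were again all below the control values.

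The other 3 members of complex I missed the threshold. *gas-1*, the core subunit whose mutant is hypersensitive to volatile anesthetics and to oxygen, had 1807 and 1774 normalized reads under overexpression versus 2058 and 2061 in the controls, with a log2 fold change of -0.20 (95% interval -0.34 to -0.06, adjusted p = 0.05002, just above the threshold). The groups of *gas-1* did not overlap. *nuo-4*, an accessory subunit, had the highest log2 fold change of the complex, -0.12 (95% interval -0.24 to -0.004), from 5104 and 5309.7 versus 5503 and 5842 normalized reads. *lpd-5*, the accessory subunit that corresponds to NDUFS4 in mammals, had a log2 fold change of -0.19 (adjusted p = 0.0976).

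Succinate dehydrogenase (complex II) also works in the citric acid cycle, and all of its subunits are encoded in the nucleus. The catalytic dimer passed the test and the membrane anchors did not. The flavoprotein gene *sdha-1* had 2066 and 2185 normalized reads under overexpression versus 2388 and 2521 in the controls (log2 change -0.21 ± 0.06 SE, adjusted p = 0.048). The iron-sulfur subunit gene *sdhb-1* had 3961 and 4060.2 versus 4462 and 4628 (log2 change -0.18 ± 0.05 SE, adjusted p = 0.0427). Both adjusted p-values lay close to the threshold. The *sdha-1* call was lost in 10 of 13 alternatives and the *sdhb-1* call in 7 of 13.

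*mev-1* encodes the cytochrome b subunit whose mutant is oxygen-sensitive and short-lived. It had 1539 and 1524 normalized reads under overexpression versus 1706 and 1697 in the controls, with a log2 fold change of -0.15 (95% interval -0.29 to -0.01, adjusted p = 0.151). The other anchor, *sdhd-1*, had a log2 fold change of -0.16 (95% interval -0.30 to -0.03, adjusted p = 0.106). The intervals of the anchors and of the catalytic subunits overlap, and the difference between them was not tested.

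Complex III moves electrons from ubiquinol to cytochrome c. Of its 7 members, 4 fell with overexpression (*ucr-1*, *ucr-2.3*, *cyc-1* and *isp-1*), with a median log2 fold change of -0.24 over the complex. *cyc-1*, the gene for cytochrome c1, had 8011 and 7972 normalized reads under overexpression versus 9773 and 9687 in the controls and fell by 17.9% (log2 change -0.28 ± 0.05 SE, adjusted p = 0.00212). *isp-1* encodes the Rieske iron-sulfur protein, a point mutation of which slows respiration and lengthens life. Its values were 7582 and 7434 versus 8710.3 and 8976 (log2 change -0.24 ± 0.05 SE, adjusted p = 0.00701). The core protein gene *ucr-1* gave 7752 and 7296 versus 8956 and 9203 (log2 change -0.27 ± 0.05 SE, adjusted p = 0.00424). Within each of these genes the pairs differed less than the groups did.

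The second core protein has 3 genes, and they had different values. *ucr-2.3* (T24C4.1, chromosome III, 879858 to 881507, plus strand) had the lowest log2 fold change of all 37 members. It had 2536 and 2249 normalized reads under overexpression versus 3634 and 3096 in the controls and fell by 28.8% (log2 change -0.49 ± 0.08 SE, adjusted p = 0.00199). The control pair of *ucr-2.3* was itself spread, and the log2 fold change ran from -0.61 to -0.37 as each library was left out. *ucr-2.1* (VW06B3R.1, chromosome X, 12018427 to 12021212, plus strand) had 3756 and 3322 versus 3955 and 4199 (log2 change -0.21, adjusted p = 0.0578). *ucr-2.2* (T10B10.2, chromosome X, 15173902 to 15178126, plus strand) had 877 and 978 versus 955 and 1015, groups that overlap (log2 change -0.09, 95% interval -0.27 to 0.10). Of the normalized reads per kilobase that fell on the 3 genes, *ucr-2.3* took 43.1% and 37.8% in the control libraries, 35.9% and 34.9% in the overexpression libraries and 35.2% and 34.9% in the libraries labelled knockout. Neither group's share overlapped the controls, with an exact two-sided permutation p of 0.333 for each, the smallest that 2 against 2 libraries can give. The small subunit gene *ucr-11* had a log2 fold change of -0.17 (95% interval -0.39 to 0.04).

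Cytochrome c carries electrons from complex III to complex IV and has 2 genes in the worm, neither of which passed the test. *cyc-2.1* had 11242 and 10453 normalized reads under overexpression versus 11907 and 12088 in the controls (log2 change -0.15, 95% interval -0.26 to -0.04, adjusted p = 0.0754). *cyc-2.2* had 163 and 167 versus 244 and 163. Its control library 1 stood above the other 3, and the log2 fold change of -0.27 was 0.02 without that library. Per kilobase of gene length, *cyc-2.1* was the highest of all 37 members in the controls at 20865 ± 223 normalized reads per kilobase (SD, n = 2), and *cyc-2.2* the lowest at 459 ± 129.

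**Figure D2:**
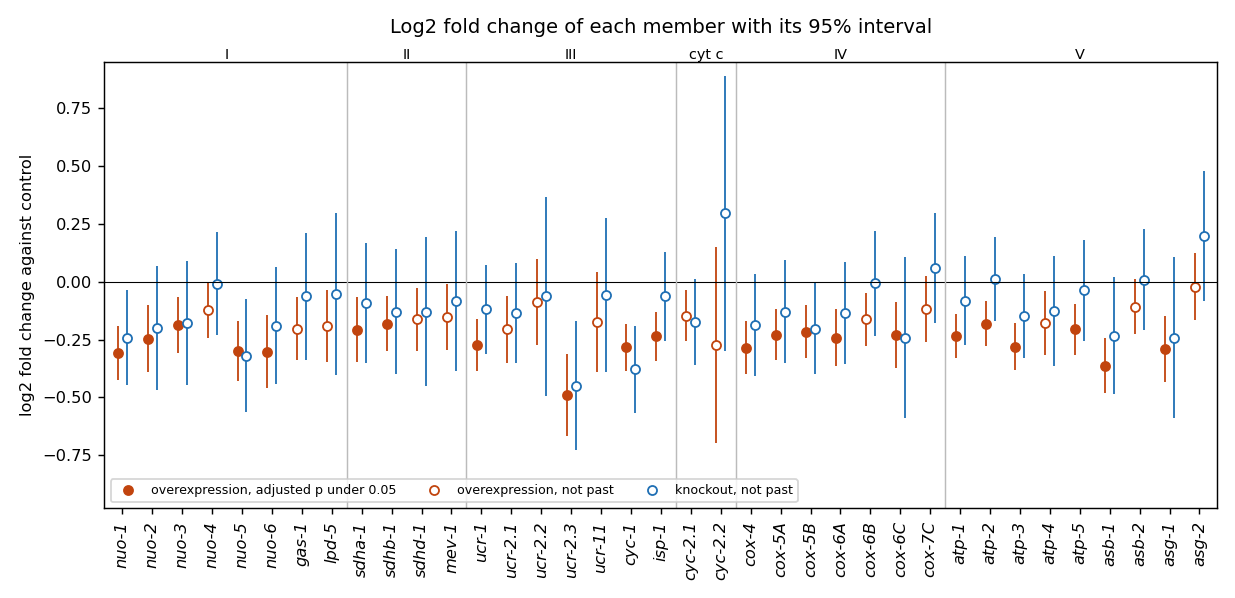
Log2 fold change of each member (y axis) against control with its 95% interval from limma, by complex along the x axis, for overexpression and for knockout. Filled points passed an adjusted p of 0.05, which 22 members did with overexpression and 0 did with knockout.

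Cytochrome c oxidase (complex IV) reduces oxygen. Its catalytic core is encoded by mitochondrial DNA, and the members here are the nuclear-encoded subunits around it. With overexpression 5 of 7 fell, and the median log2 fold change was -0.23. *cox-4* had 7429 and 6902 normalized reads versus 8750.5 and 8701 in the controls and the lowest log2 fold change of the complex (-0.29 ± 0.05 SE, adjusted p = 0.00363). The genes *cox-5A* and *cox-5B*, listed in many RNAi studies as *cco-2* and *cco-1*, had log2 fold changes of -0.23 (adjusted p = 0.00977) and -0.22 (adjusted p = 0.0176). Knockdown of *cco-1* is a standard way to set off the mitochondrial unfolded protein response in worms. In the libraries, *cox-5A* had 7991 and 7545 with overexpression against 9072 and 9129 normalized reads, and *cox-5B* had 5104 and 4817 versus 5738 and 5774.

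*cox-6A* had 4464 and 4814 normalized reads under overexpression versus 5409 and 5554 in the controls (log2 change -0.24, adjusted p = 0.0128). *cox-6C* had 2028 and 1897 versus 2350.2 and 2249.96 (log2 change -0.23, adjusted p = 0.0336). Both genes were lower in each overexpression library than in either control library. *cox-6B* did not pass (log2 change -0.16, adjusted p = 0.0577). *cox-7C* had the highest log2 fold change of the complex, -0.12 (95% interval -0.26 to 0.03), from 2466 and 2632 versus 2891 and 2645 normalized reads.

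ATP synthase (complex V) couples a rotary catalytic head to a membrane ring through a central and a peripheral stalk. Of its 9 members, 6 fell with overexpression, with a median log2 fold change of -0.21. *atp-1* and *atp-2* encode the alpha and beta subunits of the head and had the most normalized reads of all members. *atp-1* had 32603 and 31713 under overexpression versus 37646 and 38057 in the controls (log2 change -0.24 ± 0.04 SE, adjusted p = 0.00386). *atp-2* had 34543 and 34124 versus 38065 and 39817 (log2 change -0.18 ± 0.05 SE, adjusted p = 0.0173). They fell by 15% and 11.8%.

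Among the peripheral stalk genes, *atp-3*, which encodes the oligomycin sensitivity-conferring protein, had 11219 and 11103 normalized reads versus 13399 and 13729.8 in the controls and fell by 17.7% (adjusted p = 0.00196). The subunit d gene *atp-5* had 8145 and 8006 versus 9599 and 9041 and fell by 13.3% (adjusted p = 0.0167). *atp-4*, the gene for coupling factor 6, had 4345 and 3873 versus 4529 and 4758 (log2 change -0.18, adjusted p = 0.0821). Its overexpression libraries were both below the controls but lay further apart from each other than those of *atp-3* or *atp-5*.

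The b subunit of the peripheral stalk has a germline isoform, *asb-1*, and a somatic isoform, *asb-2*. The germline isoform *asb-1* (F35G12.10, chromosome III, 4594541 to 4595821, minus strand) had 3410.03 and 3325 normalized reads under overexpression versus 4412 and 4247 in the controls. It fell by 22.2% (log2 change -0.36 ± 0.06 SE, adjusted p = 0.00132), the lowest value of the complex. The somatic isoform *asb-2* (F02E8.1, chromosome X, 4469743 to 4471480, plus strand) had 6757 and 6589.8 versus 6910.1 and 7473 and a log2 fold change of -0.11 (95% interval -0.23 to 0.01, adjusted p = 0.22). Taken per kilobase over both isoforms, *asb-1* made up 40.1% and 37.4% in the control libraries, 34.6% in each overexpression library, and 37.3% and 32.5% in the libraries labelled knockout. The shares in both modified groups lay below both control shares, though knockout library 1 lay only just below control library 2. The log2 ratio of *asb-1* to *asb-2* reads was -0.65 and -0.82 in the controls and -0.99 in each overexpression library, a difference of -0.26. In the libraries labelled knockout it was -0.82 and -1.13, a difference of -0.24. The exact two-sided permutation p was 0.333 for each group against control, the smallest possible.

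The germline marker genes were measured beside this isoform. Of 15 germline and oocyte markers, 6 fell with overexpression and 0 rose (median log2 fold change -0.09). Of all genes with a mean of at least 1000, 23.9% fell, and their median was also -0.09. With knockout 0 of the 15 were called, 14 lay below 0 and the median was -0.16, beside -0.08 over genes with a mean of at least 1000. The markers' summed level, in reads normalized over the 6 libraries, was 161908 to 169337 in the controls and 150429 to 155746 with overexpression. It was 174586 in knockout library 1 and 127424 in knockout library 2. The part of these markers in the *asb-1* value was not tested.

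The g subunit of the membrane part also has 2 genes. *asg-1* (K07A12.3, chromosome I, 8692944 to 8693469, plus strand) had 1737 and 1692 normalized reads versus 2150.3 and 2041 in the controls and fell by 18.2% (log2 change -0.29 ± 0.07 SE, adjusted p = 0.0108). *asg-2* (C53B7.4, chromosome X, 6841256 to 6842204, plus strand) had 1655 and 1606 versus 1644 and 1666, the log2 fold change nearest to 0 of all members (-0.02, 95% interval -0.17 to 0.12). The log2 ratio of *asg-1* to *asg-2* reads was 0.39 and 0.29 in the controls, 0.07 in each overexpression library, and -0.03 and -0.17 in the libraries labelled knockout. Neither group overlapped the controls, with an exact permutation p of 0.333 for each.

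**Figure D3:**
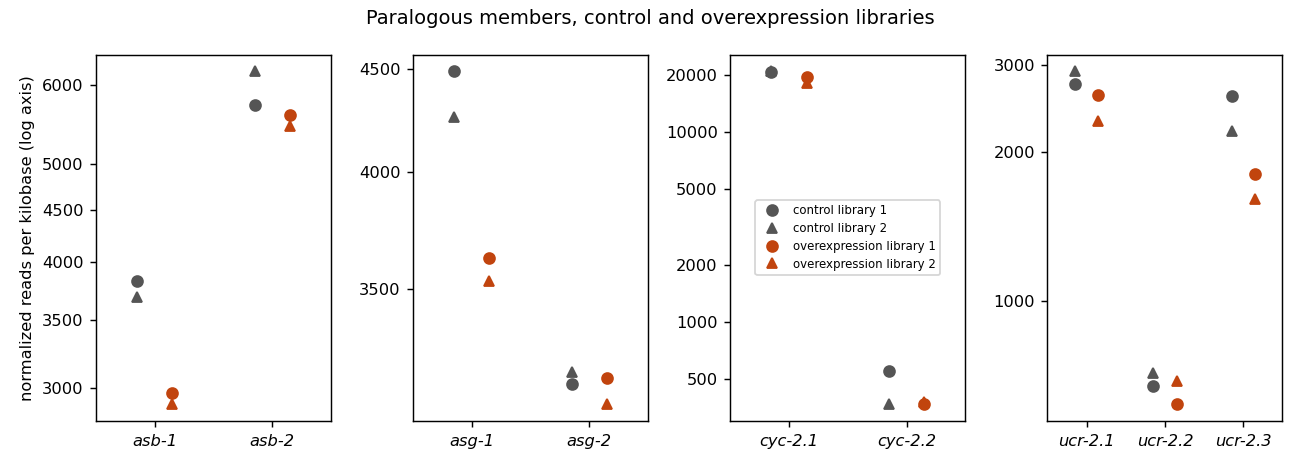
Normalized reads per kilobase (log axis, scaled separately in each panel) of the members that have a paralogue among the 37, in each control and each overexpression library. Both overexpression libraries lie below both controls for *asb-1*, *asb-2*, *asg-1*, *cyc-2.1*, *ucr-2.1* and *ucr-2.3*, of which *asb-1*, *asg-1* and *ucr-2.3* passed the test, and the groups overlap for *asg-2*, *ucr-2.2* and *cyc-2.2*.

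The members lie on chromosomes I (11), II (3), III (9), IV (4), V (4) and X (6). The X-linked members are *gas-1*, *sdha-1*, *ucr-2.1*, *ucr-2.2*, *asb-2* and *asg-2*, and only *sdha-1* of these 6 fell with overexpression, whereas 21 of the 31 autosomal members did. The median log2 fold change was -0.15 for the X-linked members and -0.23 for the autosomal ones. Over all genes at 1000 normalized reads or more the medians were -0.03 on X and -0.10 on the autosomes. Of those genes, 39 of 247 on X and 932 of 3814 on the autosomes fell. The difference between X-linked and autosomal members was not tested. The span of 11 members overlaps another protein-coding gene of the tables, on the same strand for *nuo-1*, *mev-1* and *cox-6B*, and strand-specific counting is not stated, so reads of these genes could be shared with a neighbour.

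None of the 37 members passed the limma test in the comparison of the libraries labelled knockout with control, in which 0.0127% of 15749 genes passed (0.00635% in each direction). edgeR and DESeq2 on the recovered reads also called 0 members. At an unadjusted p under 0.05 there were 5 (*nuo-1*, *nuo-5*, *ucr-2.3*, *cyc-1* and *cox-5B*), where 11% of all genes had such a p. The log2 fold change was below 0 for 32 members, with a median of -0.13, beside 0.001 over all genes and -0.08 over genes with a mean of at least 1000.

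The libraries labelled knockout differed from each other in these genes. The median of the members' log2 differences from the control mean was -0.05 in knockout library 1 and -0.19 in knockout library 2, where the overexpression libraries had -0.20 and -0.25. Without knockout library 1, 21 members were called, all lower, where 15.2% of all genes tested fell (2341 genes, while 1734 rose). Without knockout library 2, 8 members were called, 7 lower and 1 higher, where 9.38% of all genes tested fell and 8.76% rose. These 2 fits take the spread of the lone library from the control pair. In 21 members both libraries labelled knockout lay below both controls, compared with 23.4% of all genes tested and 38.7% of those with a mean of at least 1000.

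The lowest log2 fold changes with knockout were in complex III. *ucr-2.3* had 2497 and 2336 normalized reads versus 3572 and 3043 in the controls (log2 change -0.45, 95% interval -0.73 to -0.17, adjusted p = 0.394). *cyc-1* had 7381 and 7329.9 versus 9605 and 9520.4 (log2 change -0.38, 95% interval -0.57 to -0.19, adjusted p = 0.392). The libraries labelled knockout agreed closely in *cyc-1* and both were well below the controls. In the same complex *ucr-11* was nearest to 0, with 587 and 662 versus 673 and 627 normalized reads (log2 change -0.06), and *isp-1* had 8469 and 8173 versus 8560.1 and 8821 (log2 change -0.06, 95% interval -0.25 to 0.13).

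In complex I the range was set by *nuo-5*, with 5167 and 4592 normalized reads versus 6336 and 5827 (log2 change -0.32, adjusted p = 0.421), and by *nuo-4*, with 5778 and 5314 versus 5408 and 5741 (log2 change -0.01). The values of *nuo-4* overlapped the controls. *gas-1* had 2087 and 1799 versus 2023 and 2026 and *nuo-6* had 1718 and 1594 versus 1846 and 1929 (log2 fold changes -0.06 and -0.19). In complex II, *sdhb-1* had 4448 and 3749.6 versus 4386 and 4548 (log2 change -0.13) and *mev-1* had 1729 and 1439.9 versus 1677 and 1667 (-0.08), and all 4 genes of the complex overlapped between the groups.

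In complex IV, *cox-6C* had 2170.5 and 1683 normalized reads versus 2309.7 and 2211 (log2 change -0.24, 95% interval -0.59 to 0.11), with most of the difference in knockout library 2. *cox-7C* had 2866 and 2802 versus 2841 and 2599.7 (log2 change 0.06). In ATP synthase, *asg-1* had 1974 and 1536 versus 2113 and 2006 (log2 change -0.24) and *asg-2* had 2009.6 and 1733 versus 1615 and 1638 (log2 change 0.20, 95% interval -0.08 to 0.48). *asg-2* was the 1 member in which both libraries labelled knockout lay above both controls.

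For the b subunit with knockout, *asb-1* had 3884 and 3374 normalized reads versus 4336 and 4174 (log2 change -0.23, 95% interval -0.49 to 0.02) and *asb-2* had 6853 and 7369.7 versus 6791 and 7344 (0.01, -0.21 to 0.23). The beta subunit gene *atp-2* overlapped the controls at 39632 and 37519 versus 37409 and 39133 (log2 change 0.01, 95% interval -0.17 to 0.19). *cyc-2.2* had the highest log2 fold change of all members, 0.30 (95% interval -0.30 to 0.89), from 231 and 252 versus 240.1 and 160.4, whereas *cyc-2.1* had 10222 and 10679.8 versus 11701 and 11880.1 (-0.17). The wide interval of *cyc-2.2* covers both directions. The core protein gene *ucr-2.1* had 3626 and 3671 versus 3887 and 4127 (log2 change -0.13), both libraries below the controls. *ucr-2.2* had 1089 and 787 versus 939 and 997 (log2 change -0.06), groups that overlap.

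No member differed between the 2 modified groups in limma at an adjusted p under 0.05, in a comparison where 0.0188% of 15991 genes did. edgeR and DESeq2 also called 0 members, and 2 members had an unadjusted p under 0.05 (8.6% of all genes). *cyc-2.2* had 166 and 171 normalized reads under overexpression versus 239 and 264 with knockout (log2 change -0.57, 95% interval -1.02 to -0.13, adjusted p = 0.49). *atp-2* had 35249 and 34966 versus 41041 and 39301 (log2 change -0.19, 95% interval -0.38 to -0.01, adjusted p = 0.566). In both genes the groups did not overlap, and overexpression lay below knockout in 14 members in all (19.9% of all genes). The members' median log2 fold change was -0.11, and 33 of 37 lay below 0. It was -0.04 without knockout library 1 and -0.17 without knockout library 2.

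Other nuclear-encoded subunits, which are not among the 37, fell in part as well. Of 19 such genes 11 fell with overexpression and 0 rose (median log2 fold change -0.23), and 0 were called with knockout (median -0.16). Among the enzymes of the citric acid cycle 8 of 17 fell and 0 rose with overexpression (median -0.17), and of the 8 genes for ubiquinone synthesis 0 passed in limma, 2 having an unadjusted p under 0.05 (median -0.14). Of 17 assembly factors or genes for heme and copper delivery, 4 fell and 1 rose. Those that fell were *cox-14*, *cox-15*, *nuaf-1* and *coa-5*, and *coa-6* rose (log2 change 0.39 ± 0.10 SE, adjusted p = 0.0255). Of 6 adenine nucleotide carriers and ATP synthase inhibitors, 4 fell (*ant-1.1*, *ant-1.3*, *ant-1.4* and *mai-2*). These genes of short lists were named after their values were seen. For comparison, 8.06% of all genes tested fell with overexpression and 6.71% rose. Of those with a mean of at least 1000, 23.9% fell.

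The mitochondrial stress response list, which holds chaperones and regulators of the mitochondrial unfolded protein response, was mixed. Of 9 genes, 2 fell and 1 rose with overexpression, where 8.06% of all genes tested fell and 6.71% rose. *hsp-6*, the mitochondrial HSP70 chaperone, had 9826 and 9714 normalized reads under overexpression versus 12916 and 12087 in the controls (log2 change -0.35 ± 0.05 SE, adjusted p = 0.000834). The import channel gene *timm-23* also fell (log2 fold change -0.31, adjusted p = 0.00639), and *dve-1*, a transcription factor of that response, rose (0.59, adjusted p = 0.00872). With knockout the log2 fold changes were -0.30 for *hsp-6* (adjusted p = 0.398), -0.40 for *timm-23* (0.394) and 0.12 for *dve-1* (0.838). Of the 9 genes, 4 lay below 0 and 5 above 0 with knockout (median 0.03). None of the genes in these lists was called with knockout in limma, nor did any called gene change by 2-fold with overexpression.

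**Figure D4:**
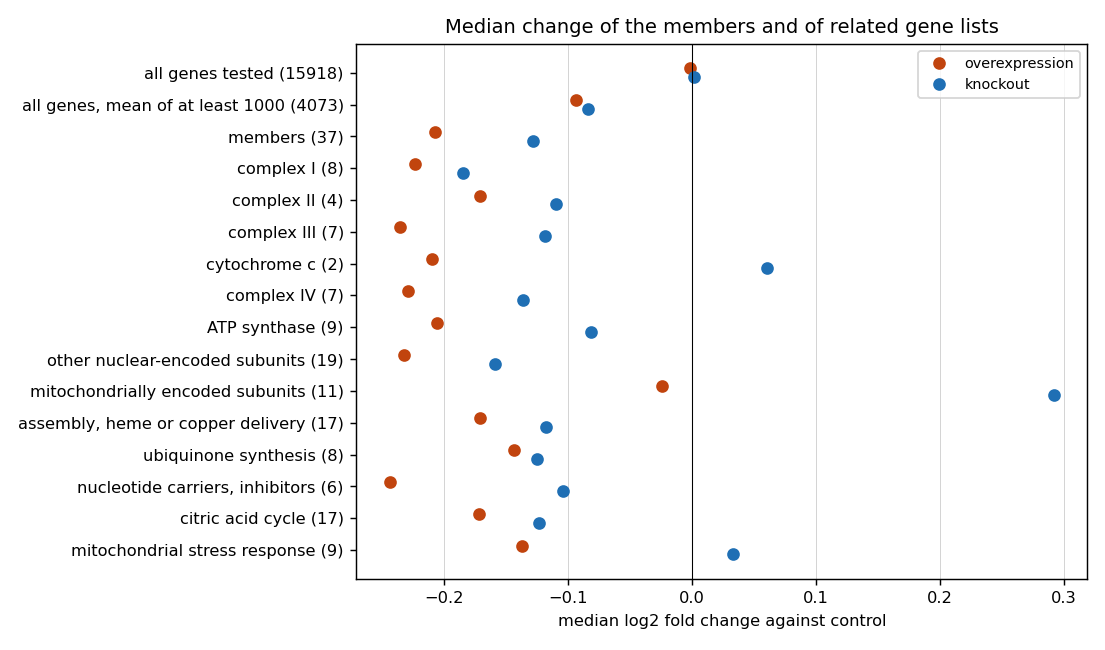
Median log2 fold change against control (x axis) of all genes tested, of abundant genes, of the members and their complexes, and of related lists (number of genes tested with overexpression in brackets), for overexpression and knockout. The members lie at -0.21 with overexpression, and the mitochondrially encoded subunits at -0.02 with overexpression and 0.29 with knockout.

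Complexes I, III, IV and V also need subunits encoded by mitochondrial DNA, of which 11 of 12 listed genes were tested. With overexpression 1 of the 11 fell, where 8.06% of all genes tested and 23.9% of those with a mean of at least 1000 did. It was MTCE.23, with 37494 and 34960 normalized reads versus 40246 and 42306 (log2 change -0.19, adjusted p = 0.0228). The median of the 11 was -0.02. With knockout 0 of the 11 passed in limma, 6 having an unadjusted p under 0.05, and the median was 0.29, with 10 of 11 above 0. In 7 of the 11 both libraries labelled knockout lay above both controls, against 22.4% of all genes tested. *ctb-1*, which encodes cytochrome b of complex III, had 22864 and 20461 normalized reads with knockout and 16719 and 17536 in the controls (log2 fold change 0.34 ± 0.09 SE, adjusted p = 0.394).

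As a share of all reads on genes, the 37 nuclear-encoded members took 1.292% and 1.2997% in the control libraries, 1.19% and 1.17% with overexpression, and 1.26% and 1.23% with knockout. The mitochondrially encoded subunits took 0.927% and 0.981% in the controls, 0.965% and 0.966% with overexpression, and 1.148% and 1.202% with knockout. The log2 ratio of mitochondrially encoded to member reads was therefore lowest in the controls (-0.48 and -0.41), higher with overexpression (-0.30 and -0.28) and highest with knockout (-0.14 and -0.03). The 3 groups did not overlap in this ratio, and the exact two-sided permutation p of each against control was 0.333, the smallest that 2 against 2 libraries can give.

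**Figure D5:**
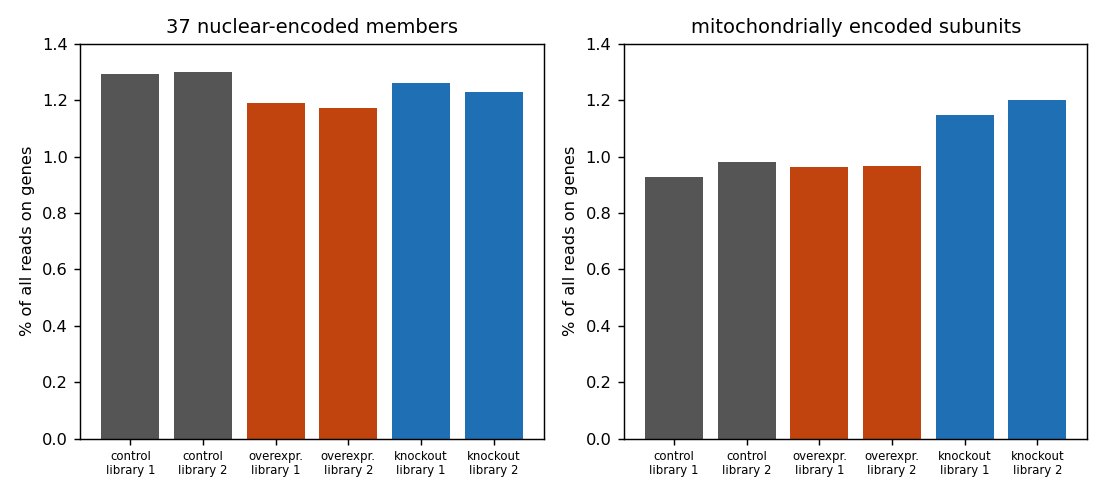
Share of all reads on genes (y axis, percent) taken by the 37 nuclear-encoded members and by the mitochondrially encoded subunits in each of the 6 libraries (bars). The members take 1.17% to 1.19% with overexpression against 1.292% to 1.2997% in the controls, and the mitochondrially encoded subunits take 1.148% to 1.202% with knockout against 0.927% to 0.981%.

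Markers of some tissues also changed with overexpression. Of 11 body wall muscle markers 6 fell and 1 rose (median log2 fold change -0.19). Of all genes tested 8.06% fell, and of those with a mean of at least 1000, 23.9%. The muscle markers' summed level was 150741 to 152588 normalized reads with overexpression, 179543 to 181151 in the controls and 161590 to 161793 with knockout, again normalized over the 6 libraries. With knockout their median was 0.04, with 7 of 11 above 0, and a sum follows its most abundant genes. The Aβ transgene also carries an *unc-54* untranslated region, and its part in the *unc-54* reads was not tested. Of 14 sperm markers 7 fell (median -0.49), with sums of 5245 to 5921 with overexpression, 7214 to 8289 in the controls and 8426 to 9960 with knockout. Of 7 intestinal markers 5 rose and 0 fell (median 0.29), where 6.71% of all genes tested rose. Their sums were 484929 to 496036 with overexpression, 425942 to 480200 in the controls and 311434 to 407938 with knockout. With knockout the median of the intestinal list was 0.07, with 4 of 7 above 0 and 0 called. Among the intestinal markers that rose with overexpression was the v-ATPase gene *vha-6* (log2 change 0.29, adjusted p = 0.0111). The study itself reports higher v-ATPase transcripts with *hlh-30* overexpression. The actin gene *act-5* rose by more than 2-fold, with 2016 and 3088 normalized reads versus 1086 and 1225 in the controls (log2 change 1.11 ± 0.14 SE, adjusted p = 0.0005). Of 6 epidermal markers 2 rose (median 0.93). The collagen gene *rol-6* had 1030 and 1012 versus 31.7 and 14.2 (log2 change 5.52 ± 0.28 SE, adjusted p = 6.59e-07). The strain list of the study names a *rol-6* marker plasmid in several transgenic strains, though not in the cross of GMC101 with the *hlh-30* transgene alone. Whether these *rol-6* reads came from a transgene was not tested. *dpy-13*, also a collagen gene, had 106 and 224 versus 96.3 and 33.4 (log2 change 1.42 ± 0.43 SE, adjusted p = 0.0418). The abundant *col-19* and *nas-37* had log2 fold changes of 0.06 and 0.22 and did not pass. Of 10 neuronal markers 1 rose (median 0.11). Of 4 pharyngeal muscle markers 0 passed in limma, 0 having an unadjusted p under 0.05 (median 0.10). None of the markers was at 0 in any library. The part of these markers in the members' values was not tested.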

How the data were processed

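RNA of whole worms was sequenced in 6 libraries, 2 for each of 3 groups, which were taken from the labels. The authors deposited 2 tables, overexpression with control and knockout with control, whose signal values are gene reads scaled by library size factors. According to the submitters' processing notes the tools were HISAT2, featureCounts and DESeq2, with no versions, and the genome build is not given in the sources used here. Multiplied by 1 factor per library, 100% of the values came out whole within 0.05 reads, and the control reads were equal in both tables for all shared genes. The tables' columns of log2 fold change and p-value deposited by the authors hold their own comparisons and were not used; 0 other columns of per-sample values were left out. Both knockout descriptions carry the same number, so those columns were assigned to the group only, and library 1 and 2 are names in table order.

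Differences were fitted in limma (version 3.58.1, R 4.3.3) to log2(normalized reads + 1), a scale that understates changes of low genes, with the trend of the spread with the mean and Benjamini-Hochberg adjustment over every gene that reached 10 normalized reads in 2 or more libraries. Overexpression was compared with knockout on the recovered reads scaled together. A gene was called at an adjusted p under 0.05. Single measures were tested with an exact two-sided permutation test, which cannot go below 0.333 here. Positions are those of the tables, and for all 37 members they overlap the gene of that name in the WBcel235 annotation. Levels per kilobase use the gene length in the tables. The fitting code was tested on simulated data.

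The members and lists were chosen with earlier results of these data known. Values per library are given for members that passed, for the highest and lowest of each complex, for paralogues, for genes best known from mutants and for *hlh-30*; from other lists, for genes that passed with a 2-fold change, of which 1 is not reported here. Alternatives were the pseudocount, the filter, the trend, TMM scaling, 1 fit of 6 libraries, edgeR 4.0.16, DESeq2 1.42.0, the threshold, each library left out, the replicate number as a block and, added after seeing the data, that block for the knockout comparisons and only the 28 members under their listed name. The libraries held 18097925 to 19300834 reads on genes, and precision is also limited by having 2 libraries per group.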

Additional observations from a re-analysis of the deposited data

How the results depend on the processing

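With overexpression the number of members past the threshold was 0 with no filter on low genes, 0 without the mean trend, 0 with all 6 libraries in 1 fit and 0 with the 2-fold minimum, and ran from 0 to 23 as each library was left out. With no filter 0 of all 22588 genes passed, and 13 of 16270 did in the fit of 6 libraries, in which the spread of the knockout pair is shared. It was 21 to 24 with the other pseudocount, the stricter filter, TMM scaling and edgeR, 18 with DESeq2, 31 at an unadjusted p and 16 among the 28 members under their listed name. The replicate numbers do not pair the libraries (correlation of same-numbered deviations 0.03 over 15918 genes), and a fit with the replicate number as a block called 25 members. For knockout the numbers in the column names do not pair the libraries either (correlation -0.08 with the controls and -0.05 with overexpression), and the block, added after seeing the data, called 0 members against control and 0 against overexpression. The median log2 fold change ran from -0.25 to -0.19 with each library left out.

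With knockout the count was 5 at an unadjusted p and 0 to 21 with each library left out, and the median ran from -0.20 to -0.0450. Between overexpression and knockout the count was 2 at an unadjusted p, and the median ran from -0.17 to -0.0376. Some members changed sign. With overexpression *cyc-2.2*, at -0.27 in the main fit, ran from -0.56 to 0.0165 as each library was left out. With knockout *asb-2* ran from -0.0473 to 0.0656, *atp-2* from -0.0283 to 0.0508, *cox-7C* from -0.00364 to 0.12, *gas-1* from -0.17 to 0.0439, *mev-1* from -0.22 to 0.0480, *nuo-4* from -0.0686 to 0.0524, *ucr-11* from -0.14 to 0.0275 and *ucr-2.2* from -0.30 to 0.17. TMM scaling gave -9.2e-05 for *asb-2* and edgeR gave 0.00792 for *nuo-4*. The causes were not tested.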
